A study of Mus musculus with 4 samples.

Results

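The genes described here are 44 cell cycle and mitosis genes, chosen by name from G1 cyclins and their kinases to the genes of DNA replication, the spindle and the kinetochore. All 44 were found by gene name, once each, among 55401 gene models of the deposited FPKM tables. The cells were group 2 innate lymphoid cells (ILC2s), tissue-resident lymphocytes without antigen receptors, purified from the lungs of C57BL/6 mice. In 2 libraries they had been stimulated for 6 h with IL-33, the alarmin that activates them, plus angiotensin II (Ang II), a peptide hormone known for raising blood pressure, and in 2 libraries with IL-33 alone. Both groups thus received IL-33, no unstimulated cells were analysed here, and each library was made from amplified cDNA of 500 cells. The labels give neither the age or number of the mice nor how ILC2s were purified.

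The cell cycle runs on cyclins and cyclin-dependent kinases. D-type cyclins with CDK4 or CDK6 phosphorylate the retinoblastoma protein, which then releases E2F factors. E2F factors and cyclin E with CDK2 start DNA replication, for which the MCM helicase has been loaded on origins by CDC6 and CDT1. Cyclin B with CDK1, Polo-like kinase and Aurora kinases then drive mitosis, and the kinetochore and its checkpoint hold back the separation of chromosomes until each is attached. Many of these genes are transcribed mainly in cycling cells. ILC2s are largely quiescent in the resting lung and can divide locally after IL-33.

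Values are FPKM, read fragments per transcript scaled for its length and for sequencing depth, so that levels may be set side by side between genes. FPKM summed to 426140 and 394808 in the Ang II libraries and to 430980 and 431014 in the IL-33 libraries. The libraries of a group were not alike in spread. Across genes whose pair mean reached 1 FPKM, Pearson's r of log2(FPKM + 1) was 0.493 for the Ang II libraries and 0.988 for the IL-33 libraries, a description in which genes are not independent replicates. The median-based spread between the Ang II libraries was 12.8 times counting noise, and the same ratio was 0.824 for the pair with IL-33 alone. By root mean square, which outlying genes raise, the ratios were 12 and 1.71. For the typical gene the pair with IL-33 alone thus differed by less than counting noise as estimated here, though not for every gene. The depth behind that noise was estimated from low genes of the same pair, so its ratio is no independent check. That depth was also used for the Ang II pair, whose own is unknown. The mean of the pair with IL-33 alone was counted as 1 sample. Of the ILC2 markers, Gata3, Rora, Il1rl1, Klrg1, Icos, Il7r, Il2ra, Id2 and Il17rb were present in every library, and the list summed to 1829 and 1793 FPKM with Ang II and to 1761 and 1769 FPKM with IL-33 alone. Thy1 was below 1 FPKM in every library.

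Most of the 44 genes were little detected in ILC2s of either group. In every library 18 of them were below 1 FPKM, and 5 of these, Cdk1, Ccnb2, Cdc6, Aurka and Bub1, were listed at 0 throughout. Only Ccnd2, Ccnd3 and Pcna stood at 1 FPKM or more in all 4 libraries. Another 10 reached 1 FPKM in both IL-33 libraries and in neither Ang II library, and 2, Cdk4 and Tyms, reached it in both Ang II libraries and in neither IL-33 library. The other 11 reached it in a single Ang II library or, for Bub1b, in a single IL-33 library. In bulk samples fewer cycling cells and less RNA of these genes per cell cannot be told apart. A listed 0 is given as such and need not mean that a transcript was absent.

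At 1 FPKM or more there were 5 and 15 of the 44 genes in Ang II libraries 1 and 2, and 18 in each IL-33 library. Of all 55401 gene models, 6103 and 7848 reached 1 FPKM in the Ang II libraries and 7190 and 7233 in the IL-33 libraries. Of the 9215 genes tested, 62.1% and 75.7% reached it in the Ang II libraries and 73.1% and 73.4% in the IL-33 libraries. The genes tested had passed a filter on mean level, which only 22 of the 44 did, so their shares are no like background for the 44. The Ang II libraries thus differed from each other in the number of cell cycle genes detected, and Ang II library 1 had the fewest detected genes of each set.

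**Figure D1:**
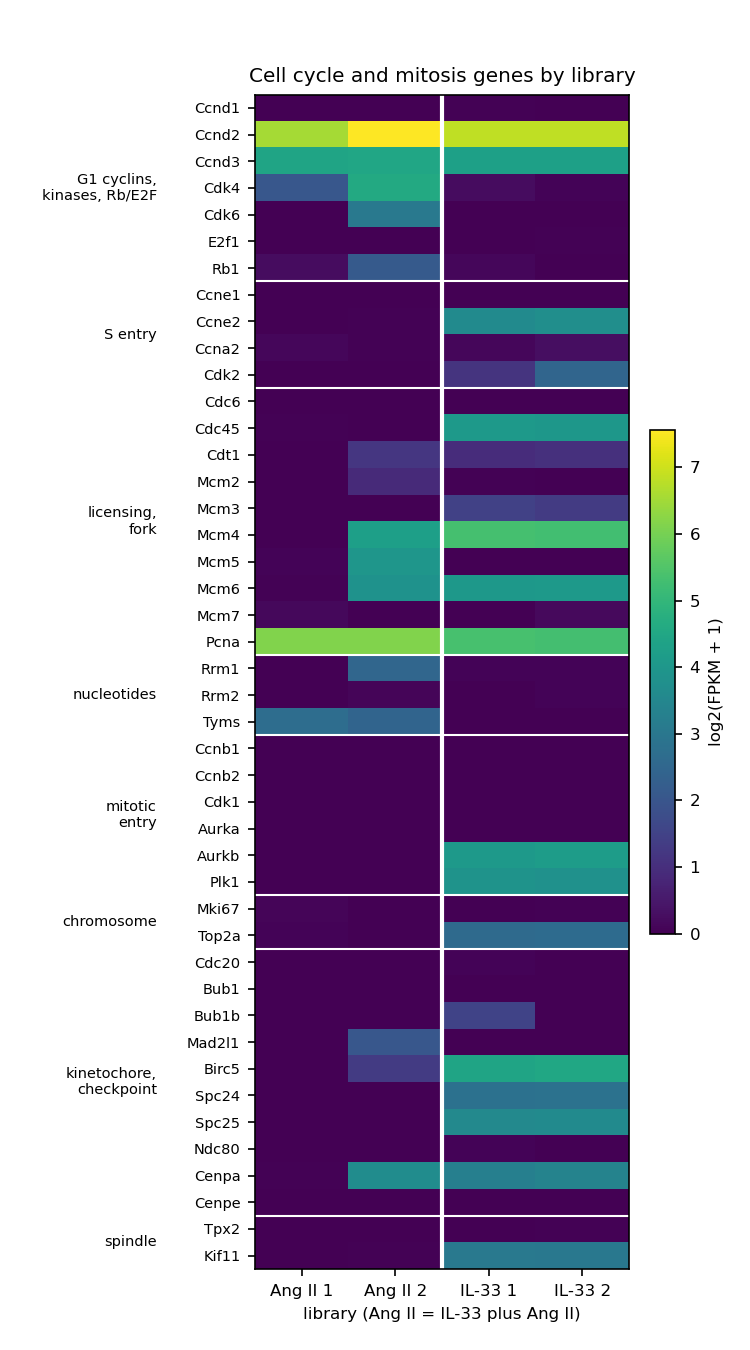
Level of the 44 cell cycle and mitosis genes, as log2(FPKM + 1) by colour, in the Ang II libraries (left 2 columns) and the IL-33 libraries (right 2 columns), with genes grouped by role. Ccnd2, Ccnd3 and Pcna stand out in all 4 columns, 18 genes are below 1 FPKM in each, and the IL-33 columns look alike while the Ang II columns differ.

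D-type cyclins, the growth factor-dependent partners of CDK4 and CDK6, were represented by Ccnd2 and Ccnd3. Ccnd2, which encodes cyclin D2 and lies on chromosome 6 (127125162 to 127152193, minus strand, mm10), was the most abundant of the 44 genes in each library, at 93.10 and 188.11 FPKM with Ang II and 112.57 and 113.75 FPKM with IL-33 alone. Its Ang II values lay on both sides of the IL-33 values. Ccnd3, which encodes cyclin D3, stood at 20.23 and 21.19 FPKM with Ang II and 18.85 and 18.67 FPKM with IL-33 alone (log2 fold change 0.14, SE 0.40, limma adjusted p = 0.889). Ccnd3 lay above both IL-33 values as deposited, by less than the spread of the fit, and not after scaling by the median ratio of abundant genes. Ccnd1, the cyclin D1 gene, did not exceed 0.03 FPKM in any library, so that the D-type cyclin RNA detected in ILC2s was that of D2 and D3.

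The kinases that D-type cyclins bind were detected with Ang II more than with IL-33 alone, unevenly between the libraries. Cdk4 (chromosome 10, 127063534 to 127067920, plus strand) stood at 3.16 and 23.02 FPKM with Ang II and at 0.19 and 0.06 FPKM with IL-33 alone (log2 fold change 3.15, SE 1.75, limma adjusted p = 0.775). Cdk6 stood at 0.00 and 7.40 FPKM with Ang II and at 0.00 and 0.01 FPKM with IL-33 alone. Rb1, the retinoblastoma gene that restrains E2F, stood at 0.19 and 3.37 FPKM against 0.09 and 0.01 FPKM. The 3 genes thus shared their highest value in Ang II library 2, and only Cdk4 also exceeded 1 FPKM in Ang II library 1. E2f1, which encodes an activating E2F factor, did not exceed 0.03 FPKM in any library.

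Cyclins of S phase entry were found in IL-33 libraries or not at all. Ccne2, which encodes cyclin E2, stood at 0.02 and 0.04 FPKM with Ang II and at 11.23 and 12.43 FPKM with IL-33 alone (log2 fold change -3.64, SE 0.35, limma adjusted p = 0.174). Cdk2, the kinase partner of cyclin E, stood at 0.01 and 0.00 FPKM with Ang II and at 1.20 and 4.52 FPKM with IL-33 alone, so that its IL-33 values themselves differed. Ccne1 and Ccna2, which encode cyclins E1 and A2, stayed at or below 0.22 FPKM in every library.

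Among replication genes, Pcna was the one detected throughout. Pcna (chromosome 2, 132249162 to 132253314, minus strand) encodes the sliding clamp of DNA polymerase and was at 69.73 and 69.60 FPKM with Ang II and at 40.35 and 38.64 FPKM with IL-33 alone. Both Ang II values lay above both IL-33 values, and the Ang II values were close to each other. The IL-33 values were close too, but that pair was counted as 1 sample. The difference (log2 fold change 0.80, SE 0.27, limma adjusted p = 0.548) did not pass. Cdc45 (chromosome 16, 18780447 to 18811987, minus strand), which encodes a part of the replicative helicase, went the other way, at 0.04 and 0.00 FPKM with Ang II and at 15.70 and 15.12 FPKM with IL-33 alone (log2 fold change -4.01, SE 0.40, limma adjusted p = 0.174).

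The MCM genes encode the 6 subunits of the helicase that is loaded on replication origins, and their levels differed within each library. Mcm4 stood at 0.00 and 18.22 FPKM with Ang II and at 39.12 and 37.57 FPKM with IL-33 alone. Mcm6 stood at 0.04 and 13.45 FPKM with Ang II and at 15.41 and 15.87 FPKM with IL-33 alone. Mcm5 stood at 0.05 and 14.64 FPKM with Ang II and was at 0 in each IL-33 library. Mcm4, Mcm5 and Mcm6 were thus near 0 in Ang II library 1 and between 13.45 and 18.22 FPKM in Ang II library 2. Mcm3 stood at 0.00 and 0.02 FPKM with Ang II and at 1.75 and 1.48 FPKM with IL-33 alone. Mcm2 and Mcm7 stayed at or below 0.88 FPKM in every library. Of the 6 subunit genes, 0 and 3 reached 1 FPKM in the Ang II libraries and 3 in each IL-33 library. The loading factor genes were low, with Cdt1 at 0.00 and 1.28 FPKM with Ang II and 0.93 and 1.08 FPKM with IL-33 alone, and Cdc6 listed at 0 throughout.

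Of the 3 genes of nucleotide supply, Tyms alone lay above both IL-33 values in both Ang II libraries. Tyms, which encodes thymidylate synthase (chromosome 5, 30058202 to 30073617, minus strand), was at 5.52 and 4.43 FPKM with Ang II and was at 0 in each IL-33 library (limma adjusted p = 0.377). Of the ribonucleotide reductase subunits, Rrm1 stood at 0.01 and 4.68 FPKM with Ang II and at 0.05 FPKM in both IL-33 libraries, while Rrm2 did not exceed 0.08 FPKM. Rrm1 and Rrm2 encode the large and the small subunit of 1 enzyme, and in no library did both reach 1 FPKM.

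Kinases of mitosis were detected with IL-33 alone and not with Ang II. Aurkb, which encodes the Aurora kinase of the chromosomal passenger complex (chromosome 11, 69045647 to 69051664, plus strand), was at 0.00 FPKM in both Ang II libraries, against 15.59 and 17.24 FPKM with IL-33 alone (limma adjusted p = 0.174). Plk1, the Polo-like kinase gene (chromosome 7, 122159439 to 122169873, plus strand), was likewise at 0.00 FPKM in both Ang II libraries, against 13.75 and 13.19 FPKM with IL-33 alone (limma adjusted p = 0.174). Neither came with the kinase that starts mitosis. Cdk1 was listed at 0 in every library, as were Ccnb2 and Aurka, and Ccnb1 did not exceed 0.02 FPKM.

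Top2a, which encodes the topoisomerase that untangles chromosomes, stood at 0.06 and 0.00 FPKM with Ang II and at 5.16 and 5.23 FPKM with IL-33 alone (limma adjusted p = 0.174). Mki67, the gene of the proliferation antigen Ki-67, did not exceed 0.07 FPKM in any library. A common mark of cycling cells was therefore near 0 in the IL-33 libraries in which Aurkb, Plk1 and Top2a were detected.

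Kinetochore genes divided within their complexes. Spc24 (chromosome 9, 21755442 to 21760303, minus strand) and Spc25 (chromosome 2, 69193895 to 69206194, minus strand) encode partners in the NDC80 complex, which binds microtubules. Spc24 was at 0.00 FPKM in both Ang II libraries, against 6.08 and 6.16 FPKM with IL-33 alone. Spc25 stood at 0.02 and 0.00 FPKM with Ang II and at 10.91 and 11.18 FPKM with IL-33 alone. Ndc80 itself did not exceed 0.06 FPKM, so that 2 of the 4 genes of the complex, counting Nuf2, reached 1 FPKM in each IL-33 library and 0 in each Ang II library. Birc5, which encodes survivin, a partner of Aurora B, stood at 0.00 and 1.49 FPKM with Ang II and at 20.39 and 21.59 FPKM with IL-33 alone (log2 fold change -3.80, SE 1.03, limma adjusted p = 0.460). Both Ang II values of Birc5 lay below both IL-33 values.

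Cenpa, which encodes the histone variant that marks centromeres, overlapped between groups, at 0.04 and 11.71 FPKM with Ang II and 8.58 and 9.44 FPKM with IL-33 alone. Mad2l1, a spindle checkpoint gene, stood at 0.00 and 3.14 FPKM with Ang II and at 0.01 and 0.00 FPKM with IL-33 alone. Bub1b, another checkpoint gene, was at 0.00 FPKM in both Ang II libraries, against 1.89 and 0.00 FPKM with IL-33 alone, so that the IL-33 libraries disagreed. Bub1, Cenpe and Cdc20, which encode a checkpoint kinase, a kinetochore motor and an activator of the anaphase-promoting complex, did not exceed 0.06 FPKM. Of the spindle genes, the motor gene Kif11 (chromosome 19, 37376403 to 37421859, plus strand) stood at 0.01 and 0.03 FPKM with Ang II and at 7.27 and 7.15 FPKM with IL-33 alone (limma adjusted p = 0.174). Tpx2, which encodes a spindle assembly factor, did not exceed 0.04 FPKM.

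**Figure D2:**
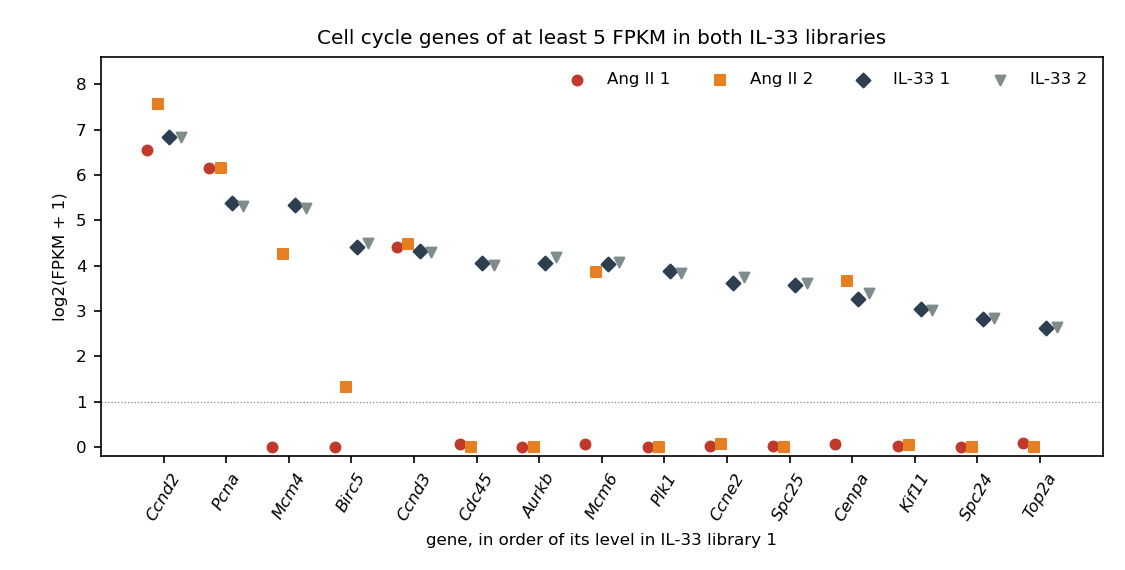
Level as log2(FPKM + 1) in each library of the 15 cell cycle genes of at least 5 FPKM in both IL-33 libraries, with the dotted line at 1 FPKM, which is 1 on this scale. In 8 genes both Ang II points lie near 0, in Mcm4, Mcm6, Birc5 and Cenpa Ang II library 1 alone is near 0, and in Ccnd2, Ccnd3 and Pcna all 4 points lie far above the line.

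In the fit over all 9215 genes, IL-33 plus Ang II was compared with IL-33 alone. The filter required 1 FPKM on average over the 3 columns of the fit and kept 22 of the 44 genes; the 22 left out were the 18 below 1 FPKM throughout with Cdk2, Cdt1, Mcm3 and Bub1b. At a Benjamini-Hochberg threshold of 0.05 limma called 0 members higher and 0 lower, as it called 0% of all genes tested. At an unadjusted p under 0.05, 0 members were higher and 8 lower with Ang II, against 2.79% and 10.8% of all genes tested. The 8 were Ccne2, Cdc45, Top2a, Aurkb, Plk1, Spc24, Spc25 and Kif11, each with an adjusted p of 0.174. Their Ang II values were all at or below 0.06 FPKM, so that these genes passed the filter through their IL-33 values alone. Values so near 0 hardly differ, and with 1 residual degree of freedom limma takes their error largely from other genes of like level. The unadjusted count is therefore given only as a description. With each IL-33 library as a replicate of its own, limma called 10 members, 1 higher (Tyms) and 9 lower (the 8 and Birc5), against 4.96% and 11.8% of all genes tested, and the adjusted p-values then take the close agreement of the IL-33 libraries as replicate error.

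Both Ang II values lay above both IL-33 values in 6 members tested, Ccnd3, Cdk4, Mcm5, Pcna, Tyms and Rb1, and below both in 11, the 8 named before with Birc5, Mcm4 and Mcm6. In the other 5, Ccnd2, Cdk6, Rrm1, Mad2l1 and Cenpa, the values overlapped. Mcm5 and Rb1 count as above through values near 0 in Ang II library 1 (0.05 and 0.19 FPKM), while Cdk6, at 0.00 FPKM there, counts as overlapping. Over all genes tested 24.4% lay above and 33.5% below. Without Ang II library 1 the count above was 11. The median log2 fold change of the members tested was -1.78, beside 0.00 over all genes tested. It was -0.02 without Ang II library 1, -3.14 without Ang II library 2, and -3.17 and -0.81 with pseudocounts of 0.1 and 5 in place of 1. Without the filter it was -0.04, so that its size depended on the libraries, the pseudocount and the filter. Genes pass the filter by a high value in either group and the median over those that pass is given only as a description.

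Of the 44 genes, 3 were at 0 in each Ang II library while exceeding 1 FPKM in each IL-33 library, namely Aurkb, Plk1 and Spc24. All 3 were among the 22 members tested, and of all genes tested 4.05% were so listed. The count was 7 without Ang II library 1 and 6 without Ang II library 2. A count that fixes the level in 1 group and reads the other was made for both directions, with thresholds chosen after the values had been seen. Of 15 members at 5 FPKM or more in both IL-33 libraries, 8 were below 1 FPKM in both Ang II libraries, against 14.3% of 5231 gene models past that floor. The gene models were not matched to the members in level above the floor. In Ang II library 1 there were 12 of the 15 below 1 FPKM, against 31.4% of those gene models, and in Ang II library 2 there were 8, against 20.8%. In the opposite direction, 0 of 3 members at 5 FPKM or more in both Ang II libraries were below 1 FPKM in both IL-33 libraries, against 8.68% of 3330 gene models. Tyms (5.52 and 4.43 FPKM) and Cdk4 (3.16 and 23.02 FPKM) missed that level in a single Ang II library each. Both were below 1 FPKM in both IL-33 libraries.

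Loss of detection was also frequent between the Ang II libraries, which received the same treatment. Of 9 members at 5 FPKM or more in Ang II library 2, 5 were below 1 FPKM in Ang II library 1 (Cdk6, Mcm4, Mcm5, Mcm6 and Cenpa), against 31.8% of 5324 gene models. In the reverse, 0 of 4 were below, against 18.5% of 4559 gene models. Between the IL-33 libraries 0 of 15 members were below in either direction, against 0.113% and 0.206% of gene models. Between the Ang II libraries the count of members was thus 5 of 9 in 1 direction and 0 of 4 in the other. The IL-33 libraries were counted as 1 sample, so their 0 of 15 is no measure of the spread between separate samples.

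**Figure D3:**
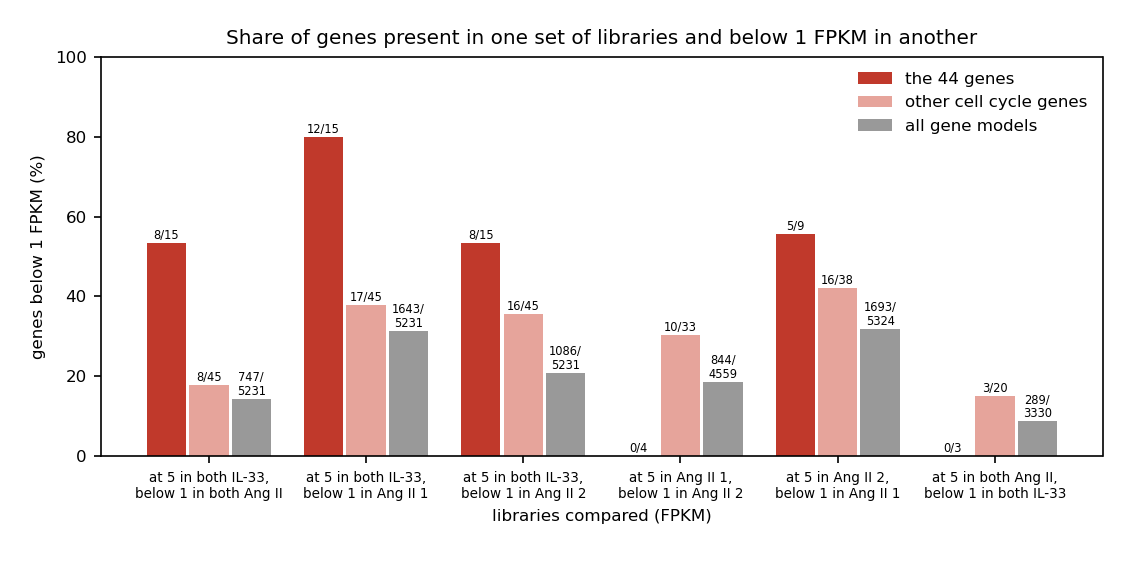
Share of genes present at 5 FPKM or more in the first named libraries that were below 1 FPKM in the second named, for the 44 cell cycle genes, 158 other cell cycle genes and all gene models, with counts above the bars. The first 3 groups start from IL-33 libraries, where 8, 12 and 8 of 15 members were below 1 FPKM with Ang II, the next 2 compare the Ang II libraries, and the last starts from them.

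**Figure D4:**
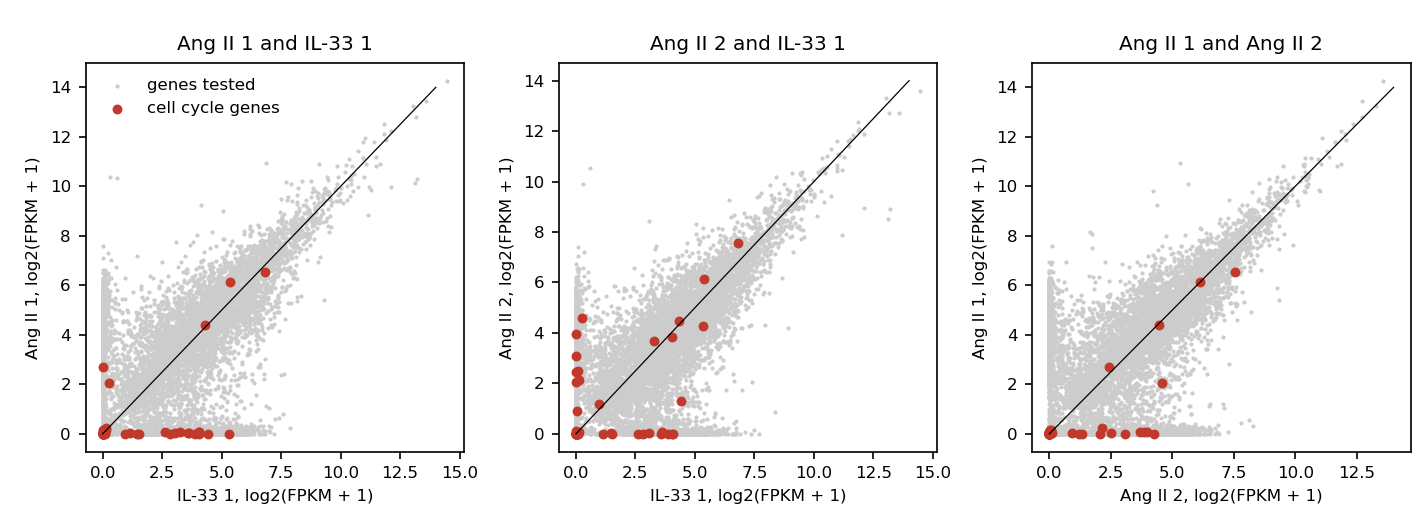
Levels as log2(FPKM + 1) of 9215 genes tested (grey) and the 44 cell cycle genes (red) in pairs of libraries, with the line of equal levels. Red points on the lower edge of the first 2 panels are genes detected with IL-33 and near 0 with Ang II, and the third panel, Ang II library 1 against Ang II library 2, shows a like row of points at the lower edge.

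Promoters are shown because several of the genes that were detected together with IL-33 alone carry the same short elements near their start, as do genes that were not detected. The elements searched, on both strands, were the E2F site (TTTCCCGC, TTTCGCGC, TTTGCCGC or TTTGGCGC), the CCAAT box (CCAAT) and the cell cycle homology region, or CHR (TTTGAA), in RefSeq windows of 250 bases before to 50 after the start (GRCm38.p6). Capitals mark these elements in the windows below, which run 5′ to 3′ in the direction of transcription and were chosen after the values had been seen. The first 4, Plk1 (chr7:122159185-122159484, plus strand), Spc25 (chr2:69206164-69206463, minus strand), Kif11 (chr19:37376132-37376431, plus strand) and Cdc45 (chr16:18811923-18812222, minus strand), belong to genes near 0 in both Ang II libraries. The others are Pcna (chr2:132253131-132253430, minus strand), detected in all 4 libraries, Mcm5 (chr8:75109259-75109558, plus strand), detected in Ang II library 2 alone, and Cdk1 (chr10:69352863-69353162, minus strand), listed at 0 throughout.
Plk1: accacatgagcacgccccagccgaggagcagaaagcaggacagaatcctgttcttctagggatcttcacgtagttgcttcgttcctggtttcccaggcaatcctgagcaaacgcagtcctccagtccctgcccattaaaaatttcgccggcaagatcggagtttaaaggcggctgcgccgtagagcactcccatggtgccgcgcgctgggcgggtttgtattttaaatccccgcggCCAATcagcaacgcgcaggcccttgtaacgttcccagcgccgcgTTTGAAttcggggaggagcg
Spc25: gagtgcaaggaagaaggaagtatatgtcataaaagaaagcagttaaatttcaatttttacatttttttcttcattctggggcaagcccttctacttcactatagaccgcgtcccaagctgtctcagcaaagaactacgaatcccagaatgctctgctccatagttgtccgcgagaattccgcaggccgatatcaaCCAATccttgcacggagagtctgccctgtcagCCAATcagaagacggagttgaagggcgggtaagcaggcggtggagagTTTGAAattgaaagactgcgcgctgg
Kif11: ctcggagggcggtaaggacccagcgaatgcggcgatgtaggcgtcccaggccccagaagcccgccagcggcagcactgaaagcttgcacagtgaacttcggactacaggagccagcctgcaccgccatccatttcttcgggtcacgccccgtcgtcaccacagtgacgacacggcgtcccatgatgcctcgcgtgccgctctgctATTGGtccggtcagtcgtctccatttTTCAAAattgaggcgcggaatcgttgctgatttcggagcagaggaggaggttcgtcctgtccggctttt
Cdc45: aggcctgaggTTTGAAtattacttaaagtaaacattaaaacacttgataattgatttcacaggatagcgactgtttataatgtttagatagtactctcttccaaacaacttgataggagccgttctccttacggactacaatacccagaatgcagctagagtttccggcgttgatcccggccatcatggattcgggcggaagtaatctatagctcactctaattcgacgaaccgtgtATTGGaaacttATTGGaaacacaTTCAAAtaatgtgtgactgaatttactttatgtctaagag
Pcna: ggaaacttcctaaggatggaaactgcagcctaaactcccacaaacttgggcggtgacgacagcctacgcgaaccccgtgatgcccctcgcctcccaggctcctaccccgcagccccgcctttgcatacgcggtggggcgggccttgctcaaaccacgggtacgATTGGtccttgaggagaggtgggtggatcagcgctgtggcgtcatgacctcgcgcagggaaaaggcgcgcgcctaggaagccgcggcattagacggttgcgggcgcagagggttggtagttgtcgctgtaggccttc
Mcm5: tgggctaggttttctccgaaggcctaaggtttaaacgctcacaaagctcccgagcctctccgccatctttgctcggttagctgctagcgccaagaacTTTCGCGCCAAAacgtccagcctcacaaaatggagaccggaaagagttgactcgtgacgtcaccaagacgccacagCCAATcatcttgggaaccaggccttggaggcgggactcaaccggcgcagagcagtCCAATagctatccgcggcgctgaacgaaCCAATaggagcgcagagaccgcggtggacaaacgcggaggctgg
Cdk1: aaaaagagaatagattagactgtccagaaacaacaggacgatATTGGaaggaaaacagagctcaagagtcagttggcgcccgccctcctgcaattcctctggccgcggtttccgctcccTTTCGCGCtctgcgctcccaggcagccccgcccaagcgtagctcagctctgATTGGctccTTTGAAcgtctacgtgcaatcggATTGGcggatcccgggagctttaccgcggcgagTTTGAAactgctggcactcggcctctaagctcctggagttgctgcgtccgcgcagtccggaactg

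In Plk1 and Spc25 CCAAT boxes before the start were followed by a CHR after it, and in Kif11 both stood before the start. Cdc45 held 2 CCAAT boxes and 2 CHR elements, Pcna 1 CCAAT box and no other element, and Mcm5 a pair of E2F sites that overlap each other on opposite strands, with 3 CCAAT boxes. Cdk1 held an E2F site, 3 CCAAT boxes and 2 CHR elements. No elements of different kinds overlapped in these windows. The kinds of element in Plk1 and Spc25 were thus also present in Cdk1, whose transcript was listed at 0 in every library.

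Windows were found for 35 of the 44 genes, 37 windows in all; Aurkb, Ccna2, Ccnd1, Ccnd2, Ccne2, Mcm4, Rb1, Spc24 and Tpx2 had none. An E2F site was in 8 of the 37 windows (21.6%), against 2.26% of all 32851 windows. The CCAAT box was in 26 (70.3%), against 37.4% of all windows, and the CHR in 14 (37.8%), against 17.9%. Of the 7 genes with a window that reached 1 FPKM in both IL-33 libraries and in neither Ang II library, 5 held a CHR (Cdc45, Top2a, Plk1, Spc25 and Kif11) and all 7 a CCAAT box. Of the 15 with a window that stayed below 1 FPKM throughout, 7 held a CHR and 11 a CCAAT box. A match describes the letters of a window and says nothing of binding.

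Beyond the 44, 158 other cell cycle genes were in the tables, of which 69 were tested. None passed (limma, 0 higher and 0 lower). At an unadjusted limma p under 0.05, 4 were higher and 10 lower, against 2.79% and 10.8% of all genes tested. With each IL-33 library as a replicate of its own, 16 of the 69 were called, against 16.8% of all genes tested. Both Ang II values lay above both IL-33 values in 13 and below in 36, against 24.4% and 33.5% of all genes tested. Their median log2 fold change was -1.10. Without Ang II library 1 or Ang II library 2 the count above was 21 or 24. Of 45 such genes at 5 FPKM or more in both IL-33 libraries, 8 were below 1 FPKM in both Ang II libraries (17.8%), against 14.3% of gene models, a share near the background.

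CDK inhibitors hold cyclin-dependent kinases in check, and the 3 most abundant of them differed in direction. Cdkn1a, which encodes p21, stood at 720.54 and 368.88 FPKM with Ang II and at 177.79 and 179.19 FPKM with IL-33 alone (log2 fold change 1.53, SE 0.64, limma adjusted p = 0.663). Cdkn2d, which encodes p19 of the INK4 family of CDK4 and CDK6 inhibitors, stood at 98.91 and 123.92 FPKM with Ang II and at 14.15 and 15.18 FPKM with IL-33 alone (log2 fold change 2.83, SE 0.34, limma adjusted p = 0.190). Cdkn1b, the p27 gene, stood at 8.30 and 1.22 FPKM with Ang II and at 10.14 and 10.80 FPKM with IL-33 alone. Cdkn1a exceeded Ccnd2, the most abundant of the 44 genes, in each library.

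Of the 30 other cell cycle genes taken as the 3 most abundant of each list, 6 lay above both IL-33 values with Ang II, 17 below and 7 overlapped. The shares over all genes tested were 24.4% above and 33.5% below. The 6 were Cdkn1a, Cdkn2d, Pttg1, Cdc16, Smc4 and Lin37. The 17 were Cdkn1b, Gmnn, Rfc4, Nek2, Stmn1, Zwint, Mdm2, Pold2, Cks1b, Cks2, Cdk7, Fen1, Smc3, Nusap1, Trp53, Ube2s and Bub3. The 7 were E2f4, Rbbp4, Fzr1, Gins4, Orc3, Mis12 and Chek1. Values are given for some of the 30 and for none of the 7 that overlapped. Pttg1, which encodes securin, the guard of sister chromatid cohesion, stood at 196.74 and 135.93 FPKM with Ang II and 105.87 and 100.86 FPKM with IL-33 alone. Gmnn, which encodes geminin, the inhibitor of CDT1, stood at 0.00 and 11.33 FPKM with Ang II and at 70.48 and 70.92 FPKM with IL-33 alone. Rfc4, a subunit gene of the clamp loader that places PCNA on DNA, stood at 18.87 and 0.05 FPKM with Ang II and at 137.44 and 129.07 FPKM with IL-33 alone. Gmnn was thus low in Ang II library 1 and Rfc4 in Ang II library 2, while Pcna itself lay above the IL-33 values in both. Nek2, a centrosome kinase gene, was at 0.00 FPKM in both Ang II libraries, against 10.84 and 12.55 FPKM with IL-33 alone, as Plk1 and Aurkb did. Cdc16, which encodes a subunit of the anaphase-promoting complex, was the reverse case, at 30.77 and 49.44 FPKM with Ang II and 0.00 and 0.03 FPKM with IL-33 alone (limma adjusted p = 0.201). Smc4, a condensin gene, stood at 24.68 and 20.94 FPKM with Ang II and at 4.58 and 4.47 FPKM with IL-33 alone. Stmn1, which encodes the microtubule-destabilising protein stathmin, stood at 18.55 and 0.18 FPKM with Ang II and at 82.67 and 85.02 FPKM with IL-33 alone. Stmn1 and Rfc4 were thus detected in Ang II library 1 and near 0 in Ang II library 2, the reverse of Mcm4, Mcm6 and Gmnn.

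Transcripts listed as markers of other cell types were present in the same libraries and differed in level between groups. Whether they came from such cells or from ILC2s was not tested. T cell markers summed to 266 and 42.2 FPKM in the Ang II libraries and to 375 and 375 FPKM in the IL-33 libraries. Of 8 T cell markers tested, 0 lay above and 7 below both IL-33 values, against 24.4% and 33.5% of all genes tested. The same shares apply to the counts that follow. Lck, whose values overlapped, and Trac led the list, and Cd8a and Cd8b1 were below 1 FPKM in every library. Of 9 ILC2 markers tested, 2 lay above and 0 below. Red blood cell and platelet markers, led by Hba-a2 and Hba-a1, summed to 3843 and 1600 FPKM with Ang II and to 25156 and 24953 FPKM with IL-33 alone, with 0 of 7 above and 5 below. Epithelial markers, led by Scgb1a1 and Sftpc, summed to 80.1 and 189 FPKM against 354 and 344 FPKM, with 0 of 3 above and 3 below and Cdh1, Krt18 and Sftpb below 1 FPKM throughout. Neutrophil markers, led by S100a8 and S100a9, summed to 61.8 and 38.7 FPKM against 209 and 201 FPKM, with 0 of 3 above and 3 below and Ly6g and Cxcr2 below 1 FPKM.

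Macrophage, monocyte and dendritic cell markers, led by Lyz2 and Chil3, summed to 2034 and 950 FPKM with Ang II and to 2148 and 2112 FPKM with IL-33 alone. Of these markers 1 of 7 lay above (Marco, 191.15 and 23.19 FPKM against 0.00 FPKM) and 5 below, with Csf1r, Mrc1 and Itgax below 1 FPKM. Smaller sums were those of B cells (52 and 1.92 FPKM against 17.3 and 14.6 FPKM, led by Cd79b and Cd79a), of NK cells and ILC1s (0.09 and 13.3 FPKM against 0.18 and 0.05 FPKM, led by Gzma and Prf1) and of stromal and endothelial cells (1.54 and 10.6 FPKM against 2.9 and 2.52 FPKM, led by Pecam1 and Col1a1). The sums of the T cell, red blood cell, epithelial, neutrophil and macrophage lists were thus higher with IL-33 alone. So were Plk1, Aurkb and the other genes near 0 with Ang II, and the part of any such cells in the cell cycle values was not tested.

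In 14 of the 44 genes some exonic bases are also those of another gene model, in 12 of them on the opposite strand alone, and the sources used here do not say whether strand was kept. They include Cdk4 (641 bases shared with Tspan31), Ccne2 (609 bases with Ints8), Rb1 (408 bases with Lpar6 and 488 with Rcbtb2), Cdc45 (209 bases with Ufd1) and Plk1 (156 bases with Gm44985). Top2a (122 bases with Gm23451) and Mcm7 (84 bases with Mir25 and 88 with Mir93) share bases on the same strand, Mcm7 also on the opposite one. Ccnd2, Ccnd3 and Cdk2 are also among the 14. The levels of all 14 could hold reads of the other gene. Aurkb, Spc24, Spc25, Kif11, Birc5, Pcna and Tyms share none.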

How the data were processed

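Lung ILC2s were profiled by RNA-seq after 6 h with IL-33 plus Ang II or IL-33 alone, 2 libraries each by the titles. Per the labels' protocols, cDNA of 500 cells was made with a SMARTer kit, amplified, fragmented enzymatically and sequenced in pairs, with no molecular identifiers named. The authors deposited FPKM per gene, 2 decimals, per the file headers; the submitters' processing notes name mm10, HISAT, StringTie and edgeR, without version or role. Annotation, strandedness and depth are stated in no label or header. As FPKM are no counts, no count model was used.

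The 4 columns were matched to samples by name. Coordinates, transcript lengths and exon overlaps came from GENCODE M21 (GRCm38, the assembly of mm10). Counting noise was taken at 15220000 fragments, an estimate from the frequency of zeros among low genes in a single IL-33 library. The median-based ratio was 0.824 for the IL-33 libraries and the root mean square, which outlying genes raise, 1.71; they were counted as 1 sample. Whether libraries stem from separate mice or cultures is not stated, so p-values reflect only the spread between samples, possibly technical. The 2 Ang II libraries give that spread (1 residual degree of freedom), and the single IL-33 sample is taken to vary likewise.

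The 9215 genes averaging 1 FPKM or more in the 3 columns were tested on log2(FPKM + 1) with limma 3.58.1 (R 4.3.3; lmFit, eBayes with trend), two-sided, Benjamini-Hochberg over all of them, threshold 0.05. Fold changes are on that log2(FPKM + 1) scale and are too small for low genes. The step was tested on simulated data. Alternatives changed the replicates, pseudocount, filter, scaling and libraries included. Members, lists and tests were chosen with earlier results of these data known. All members are named, and so are the 3 genes of highest mean FPKM of each list of other cell cycle genes. Values are given for some of these, a choice that the rule did not fix. Sequences are from RefSeq (GRCm38.p6).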

Additional observations from a re-analysis of the deposited data

How the results depend on the processing

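Counting both IL-33 libraries as replicates moved the number of members passing limma's adjusted threshold to 10, against 0, and that of other cell cycle genes to 16, against 0, while 16.8% of all genes tested passed. With the replicate number as a block in that fit, 0 members and 0 other genes passed. Same-numbered libraries did not deviate together (r = -0.019 over 9215 genes), so the number gives no pairing. The other settings (pseudocount 0.1 or 5, no filter, a mean of 5 FPKM, upper quartile, median ratio or haemoglobin-free scaling, and without either IL-33 library) left both counts at 0, and 0 tested members changed direction in any of these fits. Upper quartile scaling moved the median over all genes to 0.17, beside -1.60 over members.

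Leaving out each library in turn gave 5 counts with these ranges: 6 to 11 members above and 11 to 14 below IL-33 values, 13 to 24 other genes above and 36 to 44 below, and 3 to 7 members listed at 0 with Ang II only. Without Ang II library 1 these were 11, 11, 21, 44 and 7, and without Ang II library 2 they were 6, 14, 24, 44 and 6; fewer Ang II values to satisfy makes each criterion easier. The members' median ranged from -3.14 to -0.02 over these settings, and was -3.17 and -0.81 with pseudocounts of 0.1 and 5, and -0.04 without a filter (39 genes). Without 1 Ang II library no test was possible, with 1 sample a group. With 10 FPKM in place of 5, both chosen after seeing the data, 5 of 11 members were below 1 FPKM in both Ang II libraries, against 8 of 15, beside 10.8% and 14.3% of gene models. Depth is unknown, and values near 0.01 FPKM are at the resolution of the tables.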
